A study of Solanum lycopersicum with 9 samples.

Results

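The direct comparison of partial shading with partial defoliation was made between 6 of the 9 leaf libraries of the series, 3 per treatment. They were chosen by the treatment in their labels. The plants were wild-type tomato (Solanum lycopersicum) of the cultivar M82, grown in a greenhouse. A seedling age of 4 weeks and a photoperiod of 12 h are recorded for all 9 libraries. For defoliation (labelled defoliation 48) all leaves but the sampled leaf were cut off close to the stem. For shading (labelled shading-48) aluminium foil was wrapped around every leaf but the youngest one that had fully expanded, which was the fourth or the fifth counted from the top, and the wrapped leaves stayed attached. Both began 1 week after anthesis, and the labels do not state the unit of the number 48. The sampled leaf was therefore itself neither cut nor darkened in either treatment. The 3 control libraries came from matching leaves of untreated plants and serve here as a reference level. They also entered the filter, the scaling and the estimate of spread in the main test between the treatments. Some calls between the treatments depended on them, as given below. The design text calls the 3 samples of each group biological replicates.

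A mature leaf is a source that makes sucrose and exports it through the phloem to sinks such as roots, flowers and fruit. Removing leaves and darkening them both leave a single lit leaf to supply the plant. They differ in what stays behind: cut leaves are gone and leave wounds, and in tomato wounding is known to induce jasmonate-dependent defence genes in undamaged leaves as well. Darkened leaves remain connected, keep respiring and can still exchange sugars, water and hormones with the lit leaf. In green leaves of plants generally, the most abundant nuclear transcripts include those for light-harvesting proteins and the small subunit of Rubisco, the enzyme that fixes carbon dioxide.

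The files pair no identifier with a gene name, and 0 of the 23195 identifiers matched the gene table at hand. The wound, light and photosynthesis genes were therefore not analysed here by name, and the labelled cell type, leaf mesophyll, was not checked against markers. Genes are described by identifier, abundance and level. Total counts of the treated libraries lay between 17617138 (shading replicate 3) and 31012772, and those of the controls within that range. Shading replicate 3 stood apart from the other treated libraries. It listed 1657 genes at 0 against 334 to 612 in the other 5 treated libraries. On the main axis of variation among the treated libraries, with 43% of the variance, it scored 82.5, while the other shading libraries scored 5.28 and 8.78 and the defoliation libraries -42.4 to -25.2.

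Very few single genes separated the treatments after correction over all genes. Of 20480 genes tested, 2 were called higher under shading than after defoliation (0.00977%) and 1 was called lower (0.00488%), at an adjusted p below 0.05 in edgeR's quasi-likelihood test with Benjamini-Hochberg adjustment. Without that adjustment the same test gave 1636 higher genes (7.99%) and 1771 lower genes (8.65%) at p below 0.05. DESeq2 called 577 genes higher (2.88%) and 427 lower (2.13%) among the 20027 to which it gave an adjusted p. In all 3 shading libraries 2120 genes (10.4%) lay above all 3 defoliation libraries in CPM (counts scaled to library size), and 2340 genes (11.4%) lay below. Which count was larger depended on the scaling, with 2247 above and 2190 below under RLE factors and 2584 above and 1901 below under upper-quartile factors. The separated genes that were higher under shading had a median level of 22.7 CPM, against 11.0 CPM for those that were lower and 11.9 CPM over all genes tested. Differences of at least 2-fold were found for 547 of the 2340 lower genes (23.4%) and for 263 of the 2120 higher genes (12.4%). Over all genes tested there were 1259 (6.15%). The separated genes were picked for libraries that do not overlap, so larger differences among them than over all genes follow from that choice. The lower and the higher genes also differed in level, as given above.

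Solyc06g051940.3 had the smallest p of all genes. It stood at 28.0, 38.8 and 30.4 CPM in the 3 shading libraries, at 9.03, 6.86 and 8.46 CPM in the defoliation libraries and at 21.2, 24.2 and 30.8 CPM in the controls. The treatments did not overlap, and the shading values lay within or above the range of the controls while every defoliation value lay below it. The log2 difference, shading minus defoliation, was 2.00 ± 0.19 (SE, n = 3 per group, edgeR adjusted p = 0.0143). It was no longer called without defoliation replicate 2 (log2 difference 1.89, edgeR adjusted p = 0.085) or without defoliation replicate 3 (2.03, edgeR adjusted p = 0.0601). With the replicate number as a block the log2 difference was 1.99 and did not pass (edgeR adjusted p = 0.122).

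Solyc01g096320.3 stood at 44.3, 47.9 and 32.0 CPM under shading, 17.0, 14.5 and 17.1 CPM after defoliation and 124, 126 and 120 CPM in the controls. Here both treatments lay far below the controls, and defoliation lay lower than shading in every library. The log2 difference between the treatments was 1.36 ± 0.15 (SE, n = 3 per group, edgeR adjusted p = 0.0287). Relative to control the log2 difference was -2.93 ± 0.16 after defoliation and -1.57 ± 0.15 under shading (SE, edgeR adjusted p = 7.9e-05 and 0.00037). The call between the treatments was lost without control replicate 1 (1.36) or 2 (1.38), without defoliation replicate 1 (1.39), 2 (1.28) or 3 (1.40), and without shading replicate 1 (1.31) or 2 (1.24), so among these exclusions it held only when control replicate 3 or shading replicate 3 was the library left out. It was also lost with the 6 treated libraries alone (1.38, edgeR adjusted p = 0.0894) and with the replicate block (1.34, edgeR adjusted p = 0.122).

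Solyc02g070010.1 was the gene called lower under shading. It had counts of 0, 0 and 0 in the shading libraries, 25, 56 and 49 after defoliation and 129, 113 and 135 in the controls. In CPM, its level after defoliation was 0.933, 1.74 and 1.56, below the 4.34 to 4.65 CPM of the controls. With a floor of 3 counts over the shading group, shading stood at least 32.6-fold lower than defoliation (edgeR adjusted p = 0.0212). The bound became 20.6-, 19.3- and 25.3-fold without shading replicates 1, 2 and 3. The call was lost without control replicate 1 or 2, defoliation replicate 2 or 3, or shading replicate 1 or 2, with fitted log2 differences of -8.25, -8.26, -8.05, -8.15, -8.27 and -8.25. It was also lost with the newer quasi-likelihood method of edgeR (adjusted p = 0.0798), with the 6 treated libraries alone (edgeR adjusted p = 0.0962) and with the replicate block (edgeR adjusted p = 0.122). In all, 5 of the genes tested had no count in any shading library and at least 1 count in every defoliation library. Of those, 2 reached a mean of 1 CPM after defoliation, with 2.06 CPM as the highest. No gene tested had the opposite pattern (0 genes). The shading group holds the shallowest library, replicate 3, with 1657 genes at 0, so low genes reach 0 more easily there. The part of depth in these counts was not tested.

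Solyc03g117860.3 had the largest negative log2 difference among separated genes with a mean of at least 5 CPM in the higher treatment. An unadjusted p below 0.05 was also required there. This gene did not pass the test after adjustment, and its mean after defoliation was 5.36 CPM. It stood at 0.157, 1.09 and 0.0646 CPM under shading, 10.4, 3.10 and 2.61 CPM after defoliation and 0.720, 0.576 and 3.24 CPM in the controls. Defoliation replicate 1 was more than 3 times as high as the other defoliation libraries, and the control and defoliation libraries overlapped. The log2 difference was -3.47 ± 1.02 (SE, n = 3 per group, edgeR adjusted p = 0.159; DESeq2 adjusted p = 0.0412). It was -5.43 without shading replicate 2 and -2.58 without defoliation replicate 1.

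**Figure D1:**
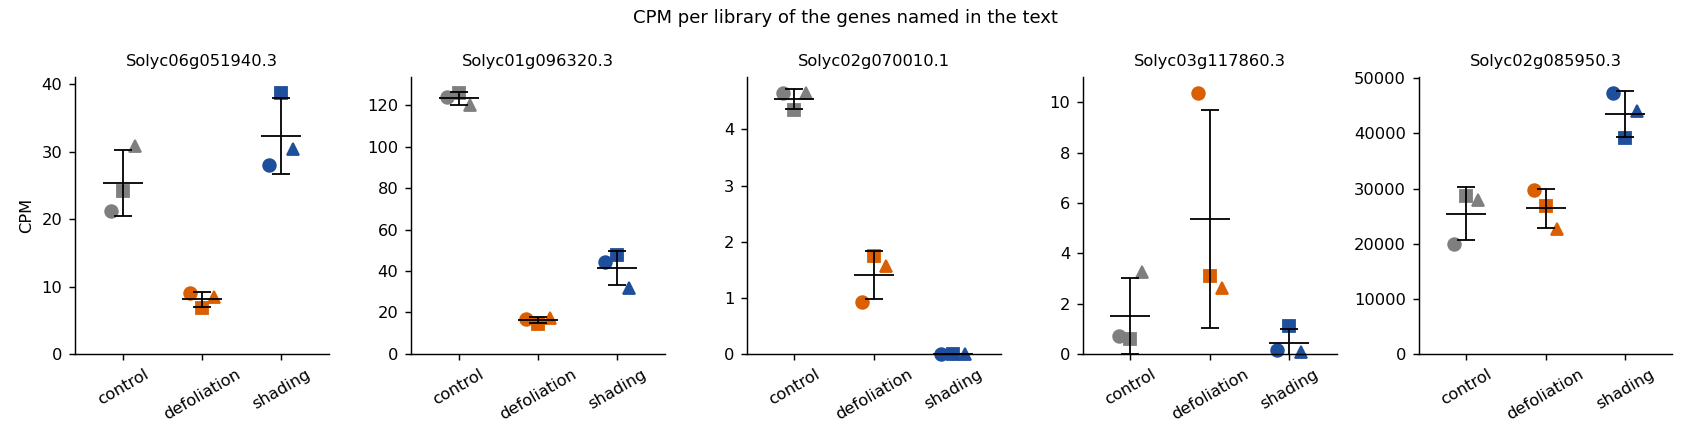
Level (CPM, linear axis from 0) of the 5 genes named in the text in each of the 9 libraries, by group. Circles, squares and triangles are replicates 1, 2 and 3, and the horizontal line and bar are the mean and SD of the 3 libraries. Shading lies above defoliation in the panels of Solyc06g051940.3, Solyc01g096320.3 and Solyc02g085950.3 and below it in the other panels.

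A larger part of each shading library came from the most abundant genes. Abundance here ranks genes by CPM, which is not corrected for transcript length, so it orders reads and not molecules. The 100 genes with the highest mean CPM over all 9 libraries held 32.0%, 32.7% and 34.7% of all counts under shading, 27.9%, 28.3% and 23.8% after defoliation, and 27.7%, 30.0% and 28.0% in the controls. Every shading library lay above every defoliation and control library, and the defoliation and control ranges overlapped. With the 100 genes ranked by the control libraries alone, the defoliation libraries (27.1%, 27.5% and 22.9%) lay below all 3 controls (28.1%, 30.4% and 28.3%). The shading libraries (31.2%, 31.9% and 34.2%) again lay above the controls. That ranking picks genes for a high level in the controls, which favours a higher control share. The order of defoliation and control under it is therefore a description. For the ranking over all libraries, the means were 33.1 ± 1.40% under shading, 26.7 ± 2.47% after defoliation and 28.5 ± 1.25% in control leaves (SD, n = 3), a difference between the treatments of 6.46 percentage points. An exact two-sided permutation test over the 6 treated libraries gave p = 0.1, the smallest value that 3 against 3 libraries allow. The 95% Wilson intervals of these shares covered counting error only and were narrow, from 34.68% to 34.73% for the shallowest library. The highest and the lowest share belonged to shading replicate 3 and defoliation replicate 3. The difference was 5.67 percentage points without the former, 5.03 without the latter and 4.25 without both. In RNA from whole samples, fewer cells of a type and less RNA per cell cannot be told apart.

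The single most abundant gene, Solyc02g085950.3, accounted for 1.22 of those percentage points. This gene was named for its rank after its values were seen. It stood at 47368, 39148 and 44129 CPM under shading, 29755, 26801 and 22672 CPM after defoliation and 19860, 28599 and 27847 CPM in the controls. All 3 shading libraries were higher than the other 6, while defoliation and control overlapped. It held 3.97 ± 0.29% of all counts under shading, 2.75 ± 0.34% after defoliation and 2.67 ± 0.44% in the controls (SD, n = 3). The log2 difference between the treatments was 0.72 ± 0.17 (SE, edgeR adjusted p = 0.123; DESeq2 adjusted p = 0.00352), so edgeR did not call it. Relative to control, shading passed with a log2 difference of 0.78 ± 0.17 (SE, edgeR adjusted p = 0.00807) and defoliation did not (0.05 ± 0.17, edgeR adjusted p = 0.832).

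**Figure D2:**
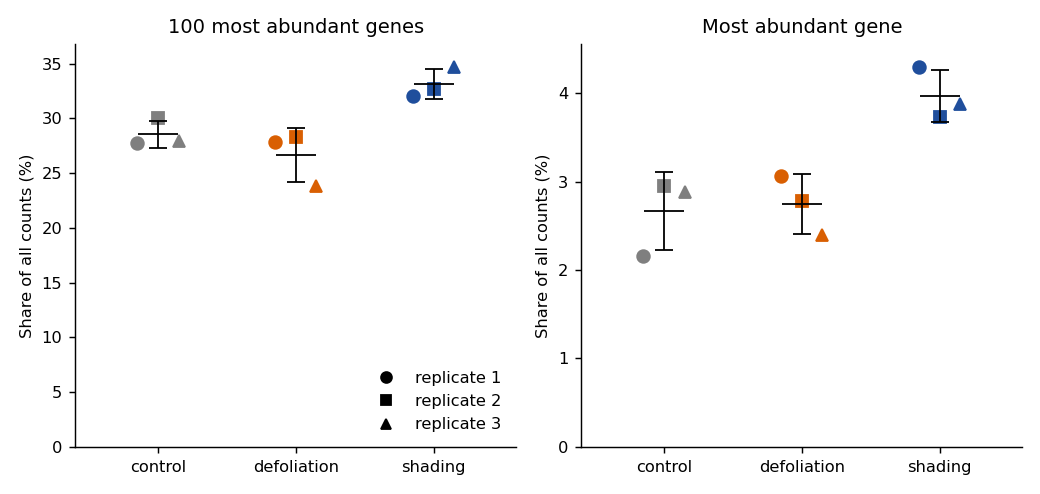
Share of all counts (percent, axis from 0) held by the 100 most abundant genes (left) and by the most abundant gene (right) in each library, by group. Symbols are replicates 1, 2 and 3, and the line and bar are the mean and SD. All 3 shading libraries lie above the other 6 in both panels, at 32.0% to 34.7% on the left.

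The excess was spread over most of these genes and did not come from the leading gene alone. Of the 100, 63 had all 3 shading libraries above all 3 defoliation libraries, against 10.4% of all genes tested, and 0 had them all below, against 11.4%. A higher fitted level under shading was found for 90 of the 100, against 9399 of all 20480 genes tested. The median log2 difference was 0.49, against -0.03 over all genes tested. None of the 100 was called by edgeR (0 genes, smallest adjusted p = 0.0889). At an unadjusted edgeR p below 0.05, 66 were higher and 0 lower under shading, against 7.99% and 8.65% of all genes tested. DESeq2 called 47 of the 100 higher and 0 lower, against 2.88% and 2.13% of the genes with an adjusted p. Ranking genes by the control libraries alone, which the direct comparison of levels does not use, kept 88 of the 100 genes and gave the same counts of 63 and 0 with a median of 0.49. The direction did not turn under other scalings. With RLE factors 65 genes of the 100 were separated upward, against 11.0% of all genes tested. With upper-quartile factors there were 68, against 12.6%. With shading replicate 3 left out, 65 were separated upward and 1 downward, against 13.5% and 14.8% of all genes tested. With defoliation replicate 3 left out, the counts were 68 and 1, against 14.1% and 15.9%. Fewer libraries separate more easily, for all genes.

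**Figure D3:**
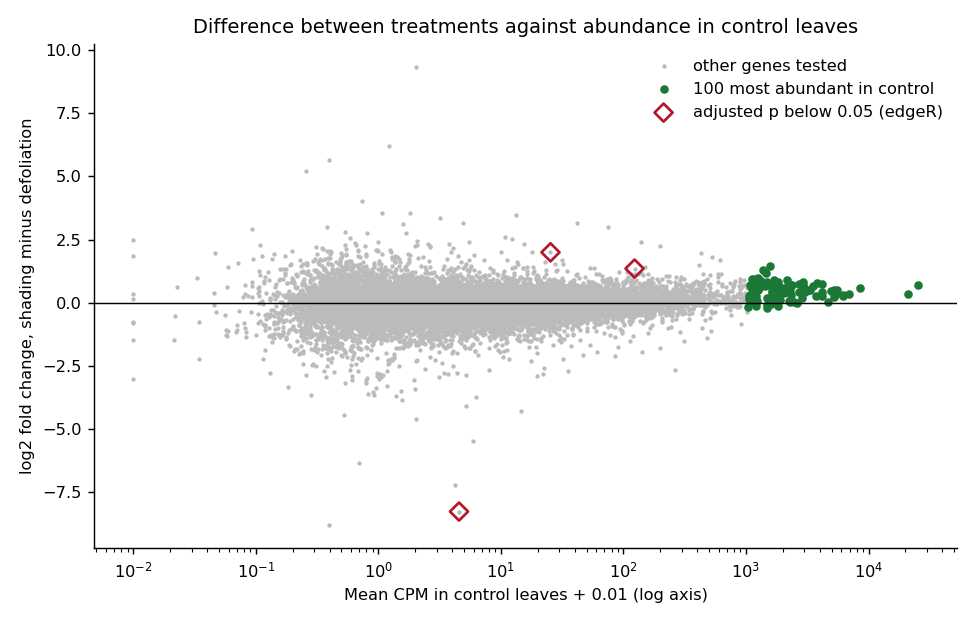
Each point is 1 of the 20480 genes tested, with its mean CPM in control leaves plus 0.01 on a log axis and its log2 fold change, shading minus defoliation, on a linear axis. Green points are the 100 genes most abundant in control leaves, whose median is 0.49, and red diamonds are the 3 genes called by edgeR.

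The share of genes that were higher under shading fell from each rank group of abundance to the next. With genes ranked by their level in control leaves, all 3 shading libraries were higher for 63% of genes of ranks 1 to 100, 36.2% of ranks 101 to 500 and 21.5% of ranks 501 to 2000. The share went on to 12.6% of ranks 2001 to 5000, 8.28% of ranks 5001 to 10000 and 7.6% of the remaining 10480 genes. The genes with all 3 shading libraries lower made up 0%, 5.5%, 5.13%, 10.1%, 12.6% and 12.5% of the same ranks. The median log2 difference went from 0.49 in the top rank group through 0.21 and 0.08 to 0.00, -0.05 and -0.07. These values used TMM factors, and the rank groups were not computed with other factors. The median over all genes tested was -0.033 with TMM and 0.015 with upper-quartile factors. The signs of the small medians, and which bar is higher in the less abundant rank groups, therefore hold for TMM factors only.

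Read as shares of a library, the same ranks showed where the counts lay. Ranks 1 to 100 by control level held 32.5 ± 1.56% of counts under shading and 25.9 ± 2.53% after defoliation (SD, n = 3). Ranks 101 to 500 held 18.2 ± 0.36% and 17.5 ± 0.62%, and the libraries of the treatments overlapped. Below rank 500 the order turned. Ranks 501 to 2000 held 19.4 ± 0.51% under shading and 21.1 ± 0.59% after defoliation, ranks 2001 to 5000 held 15.3 ± 0.62% and 17.8 ± 1.12%, and the least abundant 10480 genes held 4.45 ± 0.33% and 5.59 ± 0.55%. In those 3 rank groups and in ranks 5001 to 10000 no shading library reached a defoliation library. From the most abundant ranks down, the control means were 28.9%, 18.8%, 20.7%, 16.2%, 10.9% and 4.47%. Below rank 500 the control mean lay between the treatment means. For the least abundant 10480 genes it was close to the mean under shading. Shares of 1 library add up to a fixed total, so a larger share of some genes goes with a smaller share of others.

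**Figure D4:**
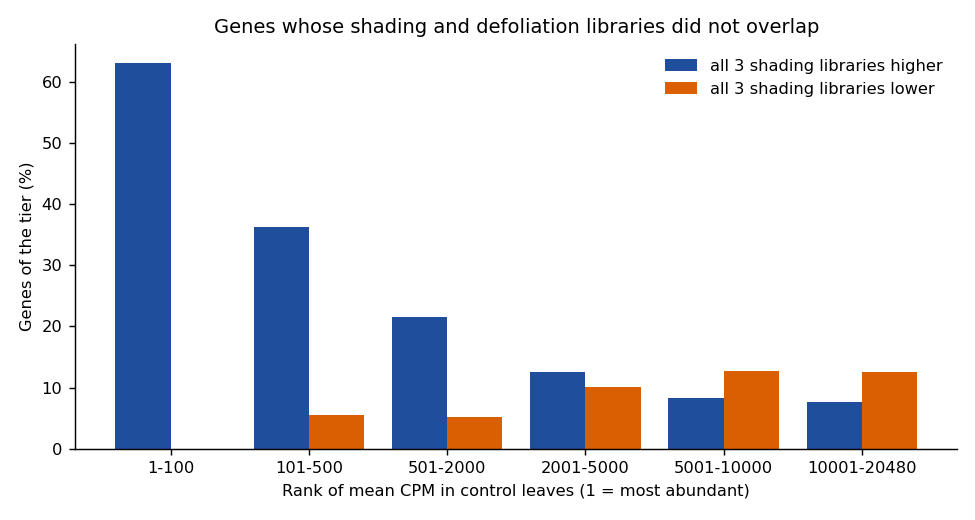
Percent of genes (axis from 0) in 6 ranks of abundance in control leaves whose 3 shading libraries all lie above (blue) or all below (orange) the 3 defoliation libraries in CPM. The blue bars go from 63% in ranks 1 to 100 to 7.6% in ranks 10001 to 20480.

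The control libraries gave the level against which the abundant genes can be read. Among the 100 most abundant genes over all libraries, the control mean lay between the treatment means for 31 genes, below both for 41 and above both for 28. Over all genes tested it lay between them for 18.2%, below both for 39.6% and above both for 42.3%. Each treatment was also set against the same 3 control libraries, so these values are given side by side. Under shading 43 of the 100 genes rose and 11 fell relative to control, where 16% and 14.2% of all genes tested did (edgeR adjusted p below 0.05). After defoliation 13 rose and 24 fell, where 18.9% and 15.4% of all genes tested did. The median log2 difference from control over the 100 genes was 0.41 under shading and -0.11 after defoliation, against -0.02 in both over all genes tested. These counts depended on how the 100 genes were ranked. With the 100 genes ranked by the control libraries alone, 34 rose and 16 fell under shading, 7 rose and 35 fell after defoliation, and the medians were 0.26 and -0.26. Each ranking uses libraries that also enter these comparisons with control, so the values are descriptions.

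Over all separated genes the control mean lay on either side of the treatments. For the 2120 genes higher under shading, the control mean lay between the treatments for 35.4%, above both for 33% and below both for 31.7%. For the 2340 genes lower under shading these shares were 30.7%, 31.1% and 38.2%. Relative to control, 644 of the 2120 genes rose and 169 fell under shading (16% and 14.2% of all genes tested), and 221 rose and 641 fell after defoliation (18.9% and 15.4% of all genes tested). Of the 2340 genes lower under shading, 242 rose and 562 fell under shading, and 817 rose and 167 fell after defoliation. The genes were separated on the treated libraries that also enter these counts, which are therefore descriptions.

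The genes with the largest log2 differences are described here together with the library that was lowest in each treatment. Of the genes with separated libraries, at least 5 CPM in the higher treatment and an unadjusted p below 0.05, the 12 with the largest positive differences ranged from 2.05 to 3.48 and the 12 with the largest negative ones from -3.47 to -2.29. None of the 24 was called by edgeR (0 genes, adjusted p = 0.0889 to 0.286). DESeq2 called 11 of the 12 higher and 8 of the 12 lower genes, against 2.88% higher and 2.13% lower over all genes with an adjusted p. The 24 were picked from the same libraries for separation and large differences, which favours such calls, so these counts are descriptions. Among the 12 that were higher under shading, shading replicate 1 was the lowest shading library for 11 and defoliation replicate 3 the lowest defoliation library for all 12. Among the 12 that were lower, the same libraries were lowest for 3 and 4. The part of these libraries in the differences was not tested. How often they were lowest over all genes tested was not counted. The median spread over genes was of similar size in the groups, with a median SD of log2 CPM of 0.24 under shading, 0.22 after defoliation and 0.20 in control leaves. Single libraries differed more. The median deviation from the group mean was 0.168, 0.128 and 0.187 for shading replicates 1, 2 and 3. For defoliation replicates 1, 2 and 3 it was 0.124, 0.137 and 0.174.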

How the data were processed

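The authors deposited 1 table of RSEM expected counts for each gene, held as whole numbers, per the file headers and the labels. Per the submitters' processing notes Trim Galore, STAR, RSEM and DESeq2 were used. No version, build or annotation is given in the sources used here. RSEM shares reads among similar genes by estimation, so near-identical copies are uncertain, and the library kit does not mark strand.

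From these counts, CPM with TMM library sizes and edgeR 4.0.16 quasi-likelihood tests (R 4.3.3, robust estimation, default method) were computed on all 9 libraries with 1 coefficient per group. The filter filterByExpr kept 20480 of 23195 genes and 99.96% of counts. P-values were adjusted by Benjamini-Hochberg over all tested genes, and 0.05 was the threshold. A standard error is the log2 difference divided by the square root of F. A group without counts has a floor of 3 counts, for counting error only. Alternatives were DESeq2 1.42.0, limma-voom (limma 3.58.1), scalings, filters, subsets of libraries and a replicate block.

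The comparison, members, lists and abundance sets were chosen with earlier results of these data known. The gene lists by function needed annotated identifiers and were not used. Named genes were those called (at most 2 per direction), filled up by the largest difference among separated genes. These had a mean of at least 5 CPM in the higher treatment and an unadjusted p below 0.05. The rule's requirement of a gene product could not be applied.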

Additional observations from a re-analysis of the deposited data

How the results depend on the processing

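The number of genes called between the treatments changed with several settings. DESeq2 called 577 higher and 427 lower, against 2 and 1 in edgeR. The newer quasi-likelihood method and a minimum of 10 counts in every library each gave 0 lower genes. The 6 treated libraries alone gave 1 higher and 2 lower. Leaving out 1 library at a time gave 0 to 3 higher and 0 to 4 lower genes. Limma-voom, RLE and upper-quartile scaling and no filter gave 2 and 1. The cause of these changes was not tested. With the replicate number as a block, edgeR called 0 higher and 0 lower, with 2923 genes at an unadjusted p below 0.05. The deviations of same-numbered treated libraries from their group means correlated at 0.14, 0.14 and 0.01, and because the last is low the number was not taken to pair them. As a weak hint from the data towards pairing, 5 of 6 treated libraries correlated best with their own number. For defoliation replicate 3 that correlation was 0.007, against 0.004 with shading replicate 2. Deviations within a group cancel out, so the 6 comparisons depend on one another. The 3 called genes kept their direction under every setting that tested them. The median log2 difference of the 100 most abundant genes stayed positive under RLE (0.50) and upper-quartile scaling (0.53) and lay between 0.37 and 0.54 with 1 treated library left out. Their share of counts differed by 5.60 percentage points for 50 genes, 7.17 for 200, and 5.03 to 7.28 with 1 treated library left out. It was 4.25 without shading replicate 3 and defoliation replicate 3, and separated genes then numbered 3926 higher and 4254 lower, since fewer libraries separate more easily. With shading replicate 3 or defoliation replicate 3 alone left out they numbered 2770 or 2894 higher and 3023 or 3255 lower. That pair of exclusions, the ranking by control and the scalings of the abundance set were chosen after seeing the data. Alternatives planned for gene lists by function were not run, because no identifier was annotated. Shading replicate 3 is the shallowest library and limits low counts: 3 counts equal 0.194 CPM there and 0.0931 to 0.117 CPM in the other treated libraries.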

Other observations

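Several of the largest differences lay at neighbouring identifiers, which in tomato are numbered along each chromosome. Of the 12 genes with the largest positive log2 differences (shading minus defoliation), 6 had an identifier within 50 numbers of another of the 24 largest on the same chromosome, against 1 of the 12 with the largest negative differences. How often other sets of genes hold such neighbours was not counted. Whether these neighbours share reads was not tested.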
